A study of Homo sapiens with 6 samples.

Results

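*FAS* and *ACTA2* are neighbours on chromosome 10q23 whose listed starts lie close together on opposite strands, and their probesets differed in opposite directions between USF1 and Empty vector cells. All probesets that the platform annotation assigns to *FAS* or *ACTA2* were taken, which gave 2 of 16569 probesets and 2 of 9586 genes, 1 probeset for each gene (204780_s_at for *FAS* and 200974_at for *ACTA2*). The pair was chosen by its USF1 minus Empty vector values in an earlier look at these same arrays, so the values of these probesets in that contrast are given as a description, without a test.

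*USF1* encodes a basic helix-loop-helix leucine zipper factor that binds E-box sequences. The cells were HEK293T, a line of human embryonic kidney origin that expresses the large T antigen of SV40, which binds p53, and that has *USF1* protein of its own. They were transiently transfected with a pcDNA4/HisMax plasmid that holds the *USF1* coding region with a polyhistidine tag (group USF1, 3 arrays) or with the vector alone (group Empty vector, 3 arrays), and all RNA was collected 48 hours later. No source used here says whether replicate arrays stem from separate transfections, and p-values therefore cover only the array-to-array spread, which may be technical. As the RNA came from whole cultures, fewer cells with a transcript and less of it per cell cannot be told apart.

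*FAS* encodes a death receptor of the tumour necrosis factor receptor superfamily. When FAS ligand binds it, the receptor recruits the adaptor FADD and CASP8 or CASP10, which start the caspase cascade of apoptosis, and *FAS* is also known as a target gene of p53. *ACTA2* encodes the smooth muscle isoform of actin, a main part of the contractile fibres of smooth muscle cells and of myofibroblasts, and its transcription is known to depend on serum response factor (*SRF*) with its coactivators and on TGF-beta signals.

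The starts of the pair are shown first because their arrangement is what sets this locus apart from a plain pair of neighbours. The RefSeq table of start windows (GRCh38.p14, 250 bases before to 50 after each start) lists 3 starts for *FAS* on the plus strand and 2 for *ACTA2* on the minus strand. The outer *ACTA2* start lies at chromosome 10, base 88991337. A *FAS* start at base 88991431 lies 94 bases away from it and points the other way, so that transcripts from these starts run apart. The other *FAS* starts, at bases 88990914 and 88990798, lie 423 and 539 bases inside the *ACTA2* gene, on the opposite strand. The inner *ACTA2* start, at base 88952773, lies 38564 bases inside. The sources used here do not place the probes within the transcripts, and a probeset cannot be tied to one of these starts.

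**Figure D1:**
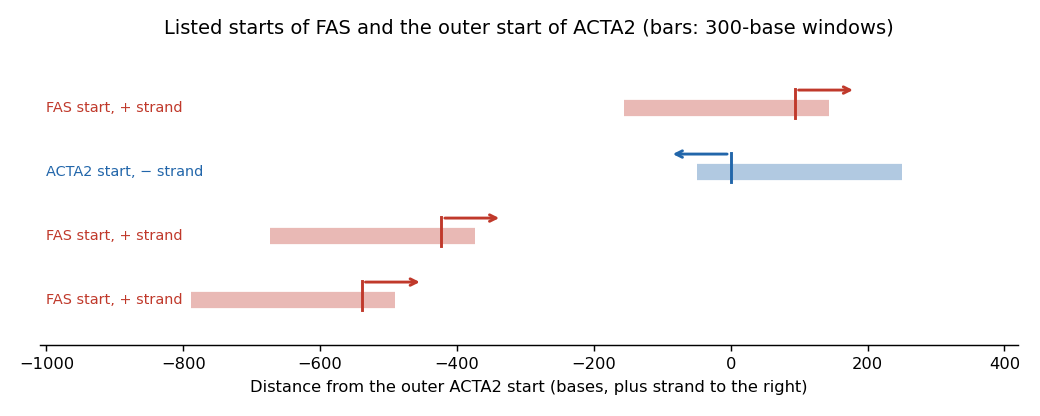
Starts of *FAS* (red, plus strand) and the outer start of *ACTA2* (blue, minus strand) in the RefSeq table, by distance in bases from the outer *ACTA2* start. Each bar is a 300-base window and each arrow a start with its direction. The uppermost *FAS* start lies 94 bases to the right of the *ACTA2* start, and their windows share 193 bases.

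The windows of the outer *ACTA2* start (chr10:88991288-88991587, minus strand) and of the nearest *FAS* start (chr10:88991181-88991480, plus strand) are printed 5′ to 3′ because they are the same DNA read from both strands over 193 bases. That shared stretch is in capitals in each.
ACTA2 outer start: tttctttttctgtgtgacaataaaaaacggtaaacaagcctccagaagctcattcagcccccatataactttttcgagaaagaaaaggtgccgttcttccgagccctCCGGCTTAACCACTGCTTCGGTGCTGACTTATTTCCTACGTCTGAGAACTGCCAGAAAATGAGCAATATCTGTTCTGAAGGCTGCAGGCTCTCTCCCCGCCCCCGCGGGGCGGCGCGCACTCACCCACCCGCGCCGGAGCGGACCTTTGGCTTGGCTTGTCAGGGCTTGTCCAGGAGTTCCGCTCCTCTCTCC
FAS nearest start: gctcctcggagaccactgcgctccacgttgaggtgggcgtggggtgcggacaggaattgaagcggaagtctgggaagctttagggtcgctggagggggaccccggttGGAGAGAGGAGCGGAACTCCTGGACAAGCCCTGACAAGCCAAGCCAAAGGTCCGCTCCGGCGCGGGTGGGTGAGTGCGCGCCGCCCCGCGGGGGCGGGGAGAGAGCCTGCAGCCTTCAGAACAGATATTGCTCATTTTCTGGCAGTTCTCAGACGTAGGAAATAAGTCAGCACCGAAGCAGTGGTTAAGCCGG

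The windows of the inner *ACTA2* start (chr10:88952724-88953023, minus strand) and of the *FAS* start at base 88990914 (chr10:88990664-88990963, plus strand) are printed because they hold the most E-box cores among the windows of their gene. Here capitals mark each match to CANNTG, read on both strands.
ACTA2 inner start: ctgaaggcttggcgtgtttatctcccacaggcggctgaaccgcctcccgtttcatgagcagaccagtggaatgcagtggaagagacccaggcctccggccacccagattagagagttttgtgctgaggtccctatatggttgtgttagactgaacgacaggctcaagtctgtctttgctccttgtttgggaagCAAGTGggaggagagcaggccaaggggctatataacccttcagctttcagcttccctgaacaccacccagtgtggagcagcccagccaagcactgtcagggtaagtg
FAS inner start: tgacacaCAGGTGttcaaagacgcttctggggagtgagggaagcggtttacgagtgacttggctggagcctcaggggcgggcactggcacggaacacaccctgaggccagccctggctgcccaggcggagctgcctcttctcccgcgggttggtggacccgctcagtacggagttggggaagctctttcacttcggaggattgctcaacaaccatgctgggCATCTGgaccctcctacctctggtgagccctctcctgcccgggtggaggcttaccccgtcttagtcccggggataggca

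The palindrome CACGTG, the canonical E-box of *USF1*, had 0 matches in each of the 5 windows, where 7.26% of all 35116 windows of 300 bases in the table hold it. The looser core CANNTG, which includes CACGTG, had 1 match in the inner *ACTA2* window, 2 in the *FAS* window printed last, 1 in the third *FAS* window and 0 in both windows that share bases, against 68.7% of all windows with a match. The GC box GGGCGG, searched on both strands, had 2 matches in each of the windows that share bases, 1 in each of the other *FAS* windows and 0 in the inner *ACTA2* window, against 45.0% of all windows with a match. The strict CArG box (CCWWWWWWGG, where W is A or T), the motif of serum response factor, had 0 matches in each of the 5 windows. It is present in 1.29% of all windows. Sites that differ from this pattern by 1 base were not counted, such as CCCTATATGG and CCTTGTTTGG in the inner *ACTA2* window, so the count does not show that sites of this factor are lacking. These are matches of letters in short windows, and binding of *USF1* was not measured in these arrays.

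Some facts of the whole series bear on the values that follow. RMA expression values, given in log2, ran from 1.89 to 12.94 in the deposited table, with array medians between 5.88 and 6.0. Empty vector replicate 1 stood apart, as its differences from the other Empty vector arrays over all probesets had an SD of 0.336 in each comparison, against 0.182 between those. The 5′ minus 3′ value of the actin control probesets, which drops when RNA is degraded, was -1.34, -1.04 and -0.52 in Empty vector replicates 1, 2 and 3 and between -0.68 and -0.49 in USF1 arrays. For the GAPDH control probesets it was -0.58, -0.32 and -0.26 in these Empty vector replicates and between -0.35 and -0.32 in USF1 arrays. By that control only Empty vector replicate 1 lay below the USF1 arrays. The single probeset of *USF1* differed by -0.07 (SE 0.19, adjusted p-value = 0.836 by limma, a linear model with moderated variances fitted over all probesets). Its values were 4.76, 4.94 and 4.68 in USF1 and 4.37, 5.08 and 5.14 in Empty vector arrays, and since the plasmid holds only the coding region this probeset may not see the transcript made from it. The paper reports over-expression of the protein by western blot, with antibodies to the tag and to USF1. Of 11 markers of HEK293 cells, 7 were measured, with *NEFM* and *VIM* above 99.0% and 98.8% of probesets in mean value and *PAX8* and *SALL1* above 34.4% and 41.5%. Of the 7, 0 rose and 2 fell, *SALL2* by 0.52 (SE 0.09, limma adjusted p-value = 0.0117) and *INA* by 0.39 (SE 0.08, limma adjusted p-value = 0.024). Of all 9586 genes, 5.18% rose and 8.89% fell at a limma adjusted p-value under 0.05. The mean value of the 7 markers was 7.35 to 7.39 in USF1 and 7.44 to 7.56 in Empty vector arrays, and no background was computed for such means. Markers of fibroblasts (9), of lymphoid and myeloid cells (8) and of endothelial cells (5) had 0 measured probesets each and are not analysed here.

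*ACTA2* had values of 5.34, 5.21 and 4.84 in Empty vector replicates 1, 2 and 3, and of 3.88, 3.71 and 3.93 in USF1 replicates 1, 2 and 3. Each USF1 array lay below every Empty vector array, with a gap of 0.91 between the groups and at most 0.50 between arrays within a group. The mean was 5.13 ± 0.26 (SD, n = 3 arrays) in Empty vector and 3.84 ± 0.12 (SD, n = 3) in USF1 cells, a log2 difference of -1.29, or 2.45-fold lower. This was rank 7 from the lowest among the differences of 16569 probesets. The probeset was not bright, as its value exceeded 23.1% to 33.9% of probesets in Empty vector arrays and 0.773% to 4.02% in USF1 arrays, so that in USF1 cells it was near the lower end of what the arrays report.

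*FAS* had values of 4.63, 4.58 and 4.18 in Empty vector replicates 1, 2 and 3, and of 5.82, 5.63 and 5.93 in USF1 replicates 1, 2 and 3. Each USF1 array lay above every Empty vector array, with a gap of 1.00 between the groups and at most 0.45 within a group. The mean was 4.46 ± 0.25 (SD, n = 3 arrays) in Empty vector and 5.79 ± 0.15 (SD, n = 3) in USF1 cells, a log2 difference of 1.33, or 2.51-fold higher, at rank 30 from the highest. The value exceeded 7.41% to 17.2% of probesets in Empty vector arrays and 42.7% to 51.1% in USF1 arrays. Over all probesets, 11.6% had their USF1 arrays above every Empty vector array and 24.5% below, and since the pair was chosen on this contrast nothing is read from the lack of overlap in these 2 probesets.

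**Figure D2:**
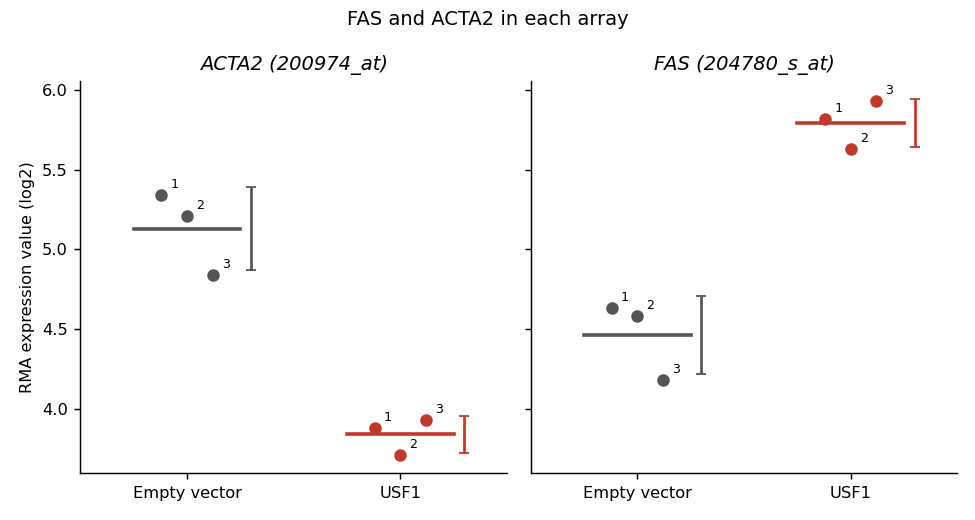
RMA expression values (log2, vertical axis) of *ACTA2* (left) and *FAS* (right), where numbered points are single arrays (Empty vector grey, USF1 red), horizontal bars are group means and error bars are SDs (n = 3). *ACTA2* is lower in USF1 arrays, with means of 3.84 and 5.13, and *FAS* is higher, with means of 5.79 and 4.46.

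Within a group, the values of the pair moved side by side from array to array. In Empty vector replicate 3, *ACTA2* lay 0.29 and *FAS* 0.28 below their group means (deviations of -0.29 and -0.28), and in replicate 1 they lay 0.21 and 0.16 above. In USF1 replicate 2, the deviations were -0.13 for *ACTA2* and -0.16 for *FAS*, and in USF1 replicate 3 they were 0.09 and 0.13. The value of *FAS* minus that of *ACTA2* was therefore steadier than either gene alone. It was -0.71, -0.63 and -0.66 in the Empty vector arrays and 1.94, 1.93 and 2.00 in the USF1 arrays. Probesets differ in how brightly they report a transcript, so this number compares arrays and is no ratio of the transcripts. Over the 7006 probesets whose group means lay between 4 and 6 in both groups, the quartiles of the deviations were -0.12 and 0.05 in Empty vector replicate 3, -0.06 and 0.14 in Empty vector replicate 1, -0.08 and 0.10 in USF1 replicate 2 and -0.12 and 0.02 in USF1 replicate 3. How many other pairs of genes move this closely was not examined, so the likeness is not shown to be particular to this pair.

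The arrays with the lowest actin 5′ minus 3′ values, Empty vector replicates 1 and 2, also had the highest *ACTA2* and *FAS* values of their group. Among USF1 arrays the relation was the opposite. There replicate 2 had the lowest actin value (-0.68) and the lowest *ACTA2* and *FAS* values (3.71 and 5.63). The part of RNA quality in the differences between groups was not tested. Without Empty vector replicates 1 and 2, which leaves only replicate 3 in that group, the log2 difference was -1.00 for *ACTA2* and 1.61 for *FAS*. Without Empty vector replicate 1 alone it was -1.19 and 1.41. The difference of *ACTA2* ranged from -1.44 (without Empty vector replicate 3) to -1.19 when single arrays were left out, and that of *FAS* from 1.19 (without Empty vector replicate 3) to 1.41.

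**Figure D3:**
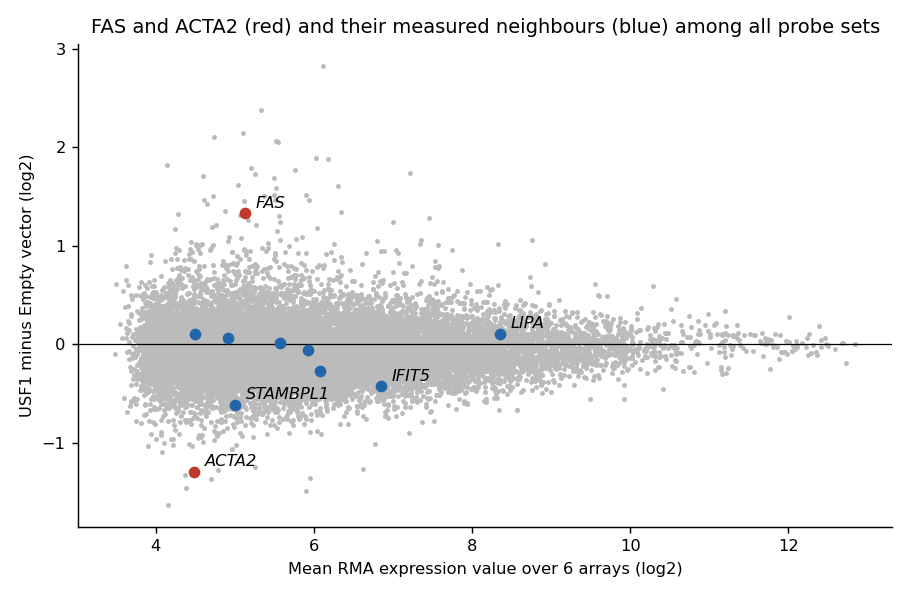
USF1 minus Empty vector difference (log2, vertical axis) against the mean value over 6 arrays (log2, horizontal axis) for 16569 probesets (grey), with *FAS* and *ACTA2* in red and the 8 measured neighbouring genes in blue. *FAS* lies at 1.33 and *ACTA2* at -1.29, and the neighbours lie between -0.61 and 0.11.

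The genes around the pair were examined next. The reference gene table places 54 further genes with a start within 1 Mb of the pair, of which 8 protein-coding genes were measured. A gene was represented by its brightest probeset and was counted as higher or lower when its limma adjusted p-value lay under 0.05, a call that 5.18% of all 9586 genes made upward and 8.89% downward. No such share is given for unadjusted limma p-values under 0.05, so counts at that threshold, here and below, lack a background for comparison. Of the 8 neighbours 0 rose and 1 fell (0 upward and 3 downward at an unadjusted p-value under 0.05), with a median difference of -0.02 against -0.079 over all genes. The one that fell was *STAMBPL1*, a deubiquitinase of the AMSH family and the nearest measured gene on the *ACTA2* side, whose listed start lies at -111.1 kb from the outer *ACTA2* start. Its values were 5.41, 5.31 and 5.20 in Empty vector and 4.63, 4.89 and 4.56 in USF1 arrays, without overlap, a difference of -0.61 (SE 0.11, limma adjusted p-value = 0.0145). Its dimmer probeset did not pass, at -0.29 (SE 0.18, limma adjusted p-value = 0.316).

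On the *FAS* side, the lysosomal acid lipase *LIPA*, with its nearest listed start 260.4 kb away, differed by 0.11 (SE 0.09). Among the interferon-induced IFIT genes, *IFIT2* differed by 0.10 (SE 0.13), *IFIT3* by 0.07 (SE 0.10), *IFIT1* by 0.01 (SE 0.14) and *IFIT5* by -0.43 (SE 0.12, limma adjusted p-value = 0.0537). The dimmer probeset of *IFIT5* passed, at -0.57 (SE 0.15, limma adjusted p-value = 0.0449). The pantothenate kinase *PANK1* differed by -0.05 (SE 0.09) and the kinesin *KIF20B* by -0.27 (SE 0.10), neither of which passed. The call of *STAMBPL1* was lost without USF1 replicate 1, without USF1 replicate 3 and without Empty vector replicate 2, so that 0 neighbours were then called. Without USF1 replicate 2 there were 2, and without Empty vector replicate 1 there was 1.

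**Figure D4:**
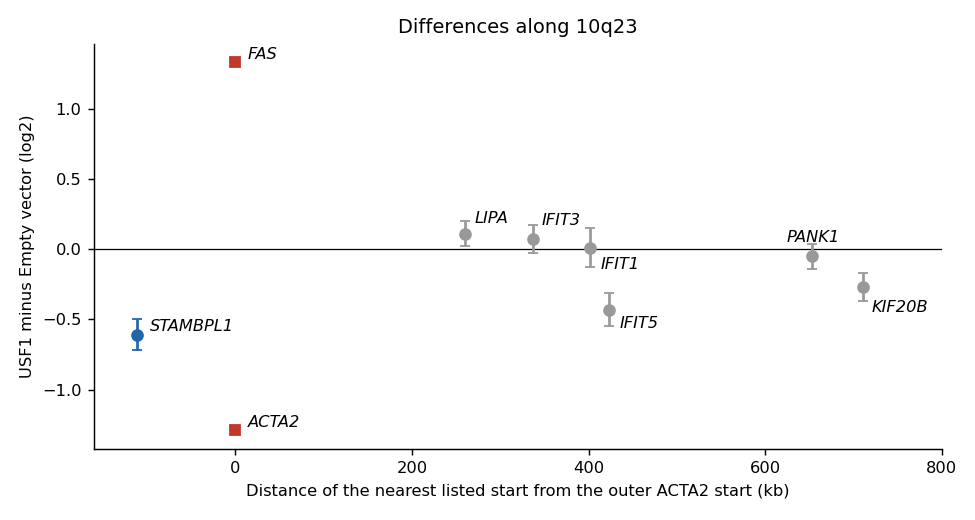
USF1 minus Empty vector difference (log2, vertical axis) by distance in kb of the nearest listed start from the outer *ACTA2* start (horizontal axis), for *FAS* and *ACTA2* (red squares, no error bar) and the measured neighbours with a listed start (circles with the standard error, blue where called lower, grey where not called). *STAMBPL1* at -111.1 kb is the blue point at -0.61, and the grey points lie between -0.43 and 0.11.

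Genes through which FAS signals were called in both directions, among them *FAF1* and *HTRA2*, while *FADD*, *CASP8* and *CFLAR* did not pass. Of 39 listed genes of the FAS pathway 27 were measured, and 2 rose and 4 fell (3 and 4 at an unadjusted p-value under 0.05), which is 7.41% and 14.8% of them against 5.18% and 8.89% of all genes, with a median difference of -0.01. The adaptor *FADD* had values of 6.91, 6.71 and 6.78 in Empty vector and 6.69, 6.67 and 6.48 in USF1 arrays, a difference of -0.19 (SE 0.10, limma adjusted p-value = 0.23). The initiator caspase *CASP8* differed by -0.04 (SE 0.10), and *CFLAR*, the FLIP protein that keeps it in check, by 0.07 (SE 0.12). The ligand gene *FASLG* and the caspase *CASP10* are not analysed here.

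Among the genes that fell was *FAF1*, which encodes a factor that binds the FAS receptor. It had values of 8.02, 7.94 and 7.85 in Empty vector and 7.56, 7.52 and 7.39 in USF1 arrays, a difference of -0.44 (SE 0.09, limma adjusted p-value = 0.021) with 2 of its 3 probesets called. *CASP9*, the initiator caspase of the mitochondrial route, differed by -0.43 (SE 0.10), *CASP8AP2*, a partner of CASP8 with a further role in histone transcripts, by -0.40 (SE 0.10), and *DFFA*, the inhibitor of the apoptotic nuclease, by -0.38 (SE 0.09), with limma adjusted p-values from 0.0302 to 0.0401. *CASP9* passed at 1 of 2 probesets and *DFFA* at 1 of 3. The mitochondrial protease *HTRA2*, which opposes inhibitors of apoptosis, rose by 0.56 (SE 0.09, limma adjusted p-value = 0.00898) at 1 of 2 probesets, the other having 0.37 (SE 0.10, limma adjusted p-value = 0.0535), and galectin-3 (*LGALS3*) by 0.60 (SE 0.14, limma adjusted p-value = 0.0326).

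Leaving out single arrays moved these counts. The list had 1 call upward and 0 downward without USF1 replicate 1 or without Empty vector replicate 2, 0 and 0 without USF1 replicate 3, 2 and 2 without USF1 replicate 2, 1 and 1 without Empty vector replicate 3, and 3 and 4 without Empty vector replicate 1. Leaving out both Empty vector arrays of low actin 5′ minus 3′ value keeps only replicate 3 in that group, so no count of calls is given for it. A part of RNA quality in the calls of this and the other lists was not tested.

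Of 28 other receptors of the TNF receptor superfamily 8 were measured, 0 rose and 0 fell (1 upward and 0 downward at an unadjusted p-value under 0.05; the methods' t-test called 0 as well, also before adjustment), against 5.18% upward and 8.89% downward of all genes, with differences from -0.16 to 0.37 and a median of 0.12 against -0.079. The TRAIL decoy receptor *TNFRSF10D* had the highest difference, 0.37 (SE 0.13, limma adjusted p-value = 0.0968), and the TRAIL death receptor *TNFRSF10B* differed by -0.05 (SE 0.08). *TNFRSF1A*, the main receptor of tumour necrosis factor, differed by -0.16 (SE 0.15). Without Empty vector replicate 1 there was 1 call, upward. The test of a difference between *FAS* and these receptors was not made, as *FAS* was chosen on this contrast.

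*FAS* is a p53 target, and of 32 further p53 targets listed 24 were measured. Of these 0 rose and 4 fell (1 and 9 at an unadjusted p-value under 0.05), 16.7% downward against 8.89% of all genes, and the median difference was -0.17 against -0.079. The DNA damage recognition gene *DDB2* fell by 1.49 (SE 0.09, limma adjusted p-value = 0.000237), with values of 6.67, 6.61 and 6.64 in Empty vector and 5.16, 5.27 and 5.03 in USF1 arrays. The nuclease *AEN* fell by 0.61 (SE 0.11, limma adjusted p-value = 0.0136), the death domain protein *PIDD1* by 0.54 (SE 0.09, limma adjusted p-value = 0.012) and the phosphatase *PPM1D* by 0.42 (SE 0.10, limma adjusted p-value = 0.0324, at 1 of 2 probesets). The cell cycle inhibitor *CDKN1A* differed by 0.17 (SE 0.12), *MDM2*, the ubiquitin ligase of p53, by -0.08 (SE 0.09) and *BAX* by 0.00 (SE 0.11), and these did not pass. The call of *DDB2* held with any single array left out. The list had 1 downward call without USF1 replicate 1, 2 without USF1 replicate 3 or Empty vector replicate 2, 3 without Empty vector replicate 3, 4 without Empty vector replicate 1, when 1 gene also rose, and 7 without USF1 replicate 2. Downward calls over all probesets moved as well, from 1259 with all arrays to 247, 1569 and 147 without USF1 replicates 1, 2 and 3. After arrays were centred on their median 3 fell and 0 rose.

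Of 21 listed actins and actin-related genes 9 were measured, and 1 rose and 0 fell (2 and 2 at an unadjusted p-value under 0.05), 11.1% upward against 5.18% of all genes, where 8.89% fell, with a median difference of -0.11 against -0.079. The one that rose was *ACTRT3*, an actin-related protein of the testis type, by 0.74 (SE 0.11, limma adjusted p-value = 0.00825). Of the conventional actins only *ACTB* was measured besides *ACTA2*, with 0.07 (SE 0.09) at the 3′ control probeset, 0.31 (SE 0.11) at the middle one and 0.46 (SE 0.15) at the 5′ one, none of which passed. The call of *ACTRT3* held with any single array left out. *ACTR3B*, of the ARP3 type, had -0.43 (SE 0.14, limma adjusted p-value = 0.0738) and *ACTR10*, a part of dynactin, -0.24 (SE 0.09, limma adjusted p-value = 0.109), both with USF1 arrays below every Empty vector array. In the other direction, *ACTL6A* had 0.39 (SE 0.13, limma adjusted p-value = 0.0789), with USF1 arrays above every Empty vector array. Over all probesets, 24.5% lay below and 11.6% above in this way.

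Of 35 listed contractile and actin-binding genes of smooth muscle 24 were measured, and 2 rose and 1 fell (4 and 1 at an unadjusted p-value under 0.05), 8.33% and 4.17% against 5.18% and 8.89% of all genes, with a median difference of 0.05. Caldesmon (*CALD1*), which binds actin and tropomyosin, rose by 0.54 (SE 0.12, limma adjusted p-value = 0.0281), with 3 of its 4 probesets called, and *FHL2*, a LIM domain cofactor, rose by 0.37 (SE 0.08, limma adjusted p-value = 0.0276). Smoothelin (*SMTN*), a marker of contractile smooth muscle, was the one that fell, by 0.49 (SE 0.10, limma adjusted p-value = 0.0202), at 1 of 2 probesets. Its values were 5.57, 5.38 and 5.39 in Empty vector and 4.97, 5.07 and 4.83 in USF1 arrays. Myosin light chain kinase (*MYLK*) lay next to the threshold at 0.66 (SE 0.18, limma adjusted p-value = 0.0513), and the tropomyosin *TPM1* differed by -0.04 (SE 0.11), vinculin (*VCL*) by -0.05 (SE 0.10) and the myosin heavy chain *MYH9* by 0.06 (SE 0.13).

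Of the 7 markers of smooth muscle cells 2 were measured, *SMTN* and *LMOD1* (-0.07, SE 0.11), and the defining genes *MYH11*, *CNN1*, *DES*, *MYOCD* and *TAGLN* are not analysed here. The mean value of these 2 probesets was 4.67 to 4.86 in USF1 and 4.94 to 5.22 in Empty vector arrays, again without a background for such means. The contractile list had 0 calls in either direction without USF1 replicate 1, without USF1 replicate 3 or without Empty vector replicate 2. It had 0 upward and 1 downward call without Empty vector replicate 3, 2 and 1 without USF1 replicate 2, and 4 and 1 without Empty vector replicate 1.

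Of 37 listed transcription factors and signals that act on *ACTA2* 31 were measured, 1 rose and 0 fell (3 and 5 at an unadjusted p-value under 0.05; the methods' t-test before adjustment also had 5 downward), 3.23% upward against 5.18% of all genes, where 8.89% fell, with a median difference of -0.08 against -0.079. The one that rose was *TGFB2*, a TGF-beta ligand. Its values were 3.89, 4.19 and 3.93 in Empty vector and 4.92, 5.18 and 4.96 in USF1 arrays, without overlap, a difference of 1.02 (SE 0.11, limma adjusted p-value = 0.00289), and the call held with any single array left out. *SRF* differed by -0.01 (SE 0.11, limma adjusted p-value = 0.961), its coactivators *MRTFA* by -0.18 (SE 0.10) and *MRTFB* by -0.02 (SE 0.10), and the coactivator *MYOCD* is not analysed here. Of the TGF-beta route, *SMAD3* had 0.28 (SE 0.09, limma adjusted p-value = 0.0751), *SMAD2* -0.01 (SE 0.10), *SMAD4* -0.22 (SE 0.08) and the receptor *TGFBR1* 0.14 (SE 0.09), none past the threshold.

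**Figure D5:**
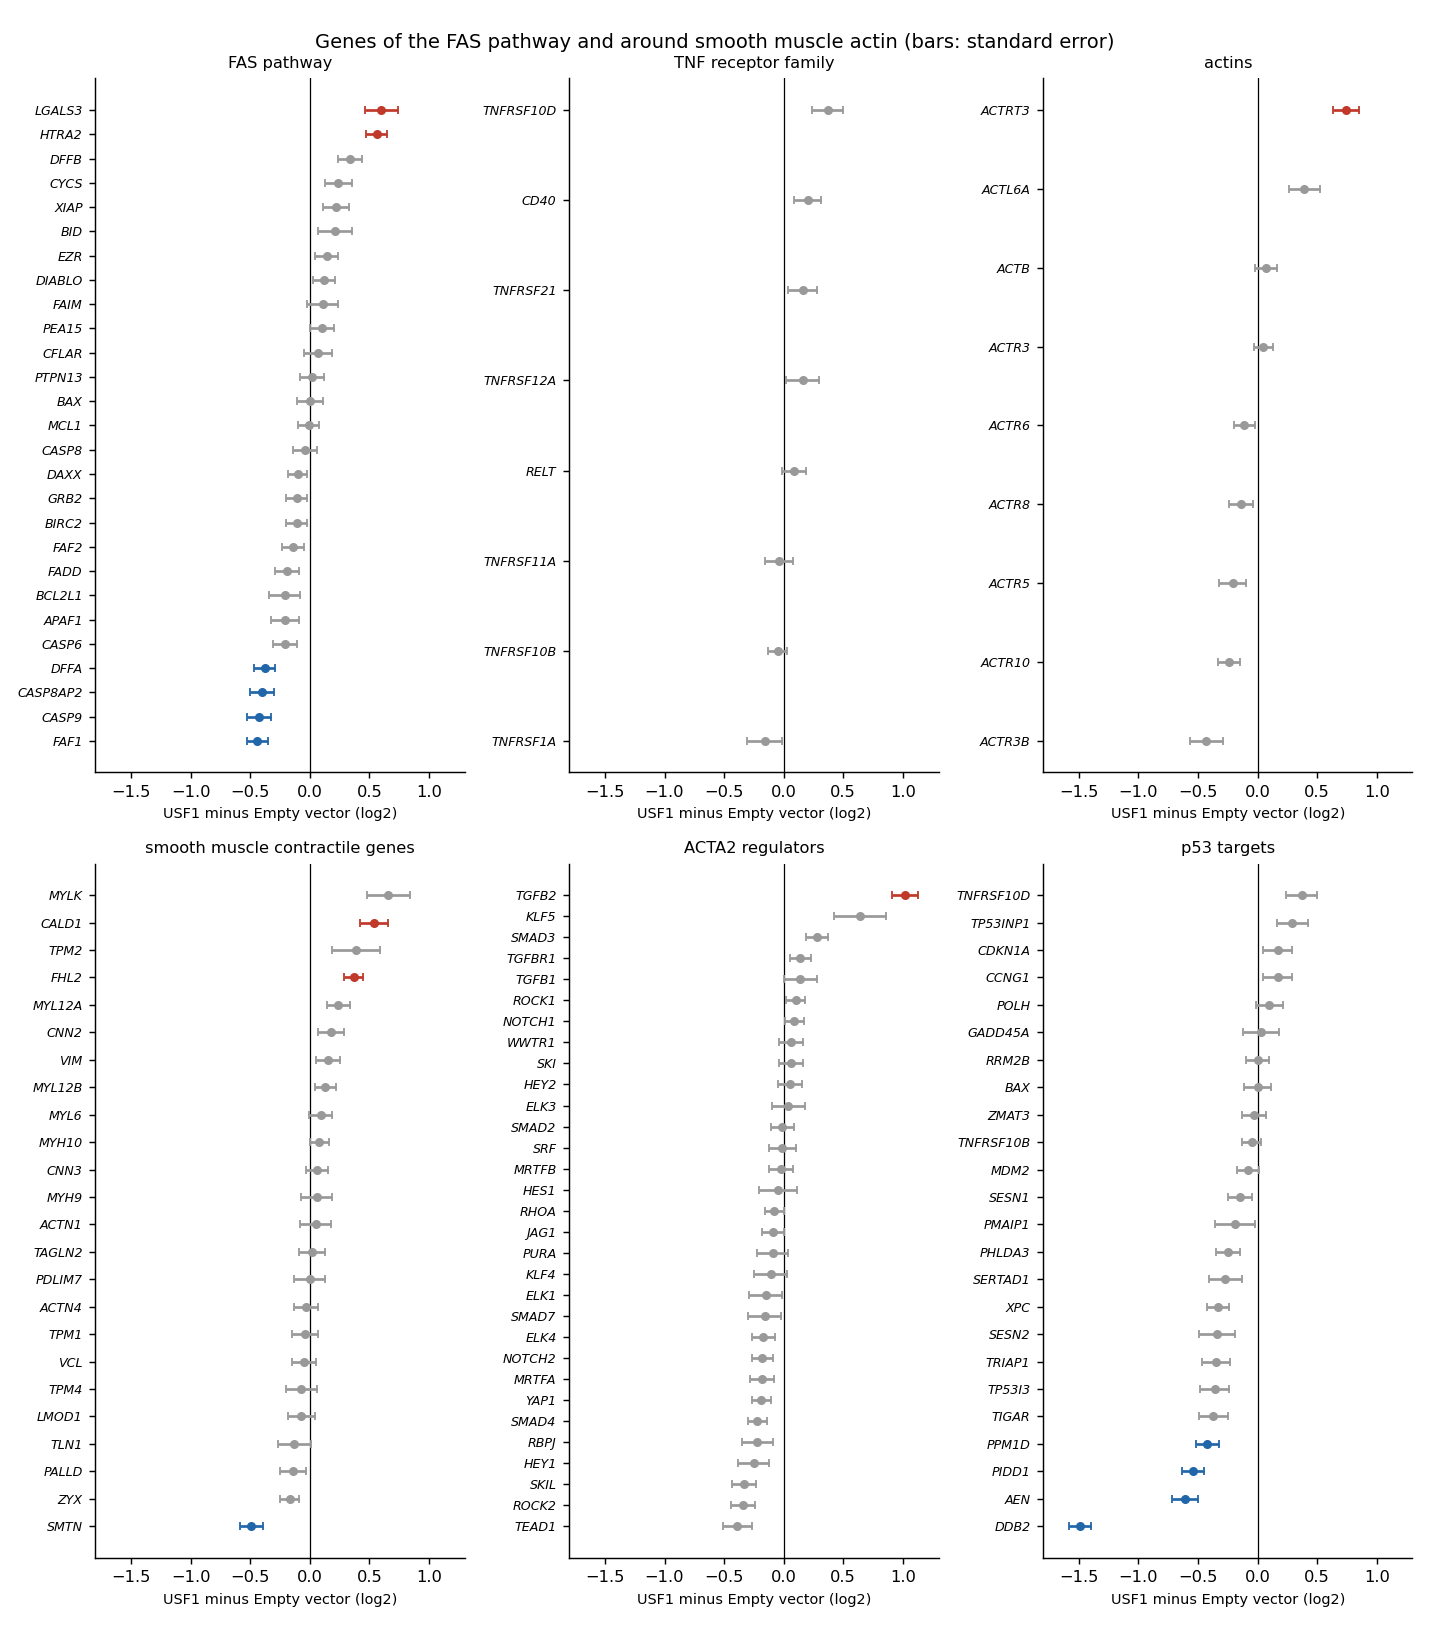
USF1 minus Empty vector difference (log2, horizontal axis) of the measured genes (vertical axis) in 6 lists, 1 panel per list, with bars for the standard error. Red points were called higher by limma, blue points lower and grey points neither. In the panel of p53 targets 4 points are blue and 0 red, and among the regulators of *ACTA2* the 1 red point is *TGFB2* at 1.02.

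Last, the genes whose values over the 6 arrays were most like those of the pair were listed by the root mean square distance between profiles centred on their own means, over 9584 genes. Such a distance rests mainly on the difference between the groups, so these genes carry no test. Nearest to *ACTA2* were *WASHC3*, a subunit of the WASH complex on endosomes (distance 0.202, log2 difference -1.01), *FAM200C* (0.210, -0.90), the divergent transcript *DPH5-DT* (0.213, -1.35), the pseudogene *ZNF767P* (0.214, -0.94) and *DDB2* (0.222, -1.49). Nearest to *FAS* were *TBC1D30*, of the family of RAB GTPase regulators (0.093, 1.21), the interleukin receptor *IL6R* (0.123, 1.31), the transcription factor *BATF3* (0.125, 1.35), *GCH1*, the first enzyme of tetrahydrobiopterin synthesis (0.148, 1.29), and the protein kinase inhibitor *PKIB* (0.151, 1.61). The genes nearest to *FAS* lay closer to it than any gene lay to *ACTA2*. When the *ACTA2* profile was mirrored in sign, *FAS* lay at a distance of 0.33 from it, at rank 60 of all genes.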

How the data were processed

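RNA from HEK293T cells was hybridized to Affymetrix arrays, 3 for USF1 and 3 for Empty vector, and each array was assigned to its group by its title. Values were deposited as log2 expression. Per the paper's methods, the authors imported the arrays into R 2.8.0 with justRMA (background subtraction and quantile normalization), masked probes that hit the wrong or several targets, dropped probesets left with fewer than 7 probes or absent in more than 50% of arrays, and removed batch effects by ComBat. Which arrays formed a batch is not given in the sources, and as the fit holds no batch term, p-values rest on the spread that this correction left. Raw images were not used here, and the number of arrays limits the precision.

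The USF1 minus Empty vector difference was fitted in R 4.3.3 with lmFit and eBayes of limma 3.58.1 over all 16569 probesets, 33 control probesets included (prior degrees of freedom 4.53), with Benjamini-Hochberg adjustment and a threshold of 0.05. Of these probesets, 15099 had 1 gene, 570 several and 900 none in the platform annotation, and symbols were updated through Entrez identifiers in the GRCh38.p14 gene table. A gene stands at its brightest probeset. Named genes are the pair, all measured genes within 1 Mb, up to 4 called genes of each list by adjusted p-value (all where 5 or fewer were called), the measured conventional actins, direct partners of FAS, *SRF* and its coactivators, and the 5 genes nearest in profile to each of the pair. Other genes were named after their values were seen. Members and gene lists were chosen with earlier results of these data known. Alternatives were the methods' t-test with unequal variances, centring, a further quantile normalization, leaving out the dimmest 25%, array weights, a replicate block, any probeset of a gene, linear or median summaries, and leaving out arrays. The procedure was tested on simulated data.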

Additional observations from a re-analysis of the deposited data

How the results depend on the processing

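The log2 differences of *ACTA2* and *FAS* kept their direction under each of 13 alternatives, from -1.44 to -1.00 and from 1.19 to 1.61. A setting chosen after seeing the data left out both Empty vector arrays of low actin 5′ minus 3′ value, which keeps only replicate 3 in that group. Its differences (-1.00 and 1.61) moved by more than the SD between arrays. Counts of calls depended on the setting, and the cause was not tested. Over all probesets 715 rose and 1259 fell. Of these calls 36.2% were upward, 56.1% after centring and 50.4% after a further quantile normalization. The counts up and down were 0 and 1 by the methods' t-test after Benjamini-Hochberg adjustment and 1160 and 2259 before it, 1277 and 2411 with array weights, and 217 and 60 without both arrays of low actin value. With single arrays left out they ranged from 219 to 877 and from 147 to 1569. After centring 815 fell.

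By the methods' t-test after adjustment, 0 genes of any list passed. Before it, 2 contractile genes and 5 regulators of *ACTA2* fell. With array weights 1 TNF receptor, 2 actins, 5 contractile genes and 1 p53 target rose, and 2 regulators, 7 p53 targets and 2 neighbours fell. Counts without both arrays of low actin value are not given, as that setting keeps only Empty vector replicate 3 in its group. After centring 2 regulators rose. Without the dimmest 25% of probesets 0 regulators rose, as *TGFB2* is among those left out, and 2 neighbours fell, as they did with any probeset of a gene counted. With single arrays left out, upward and downward calls ranged from 0 to 3 and 0 to 4 in the FAS pathway, 0 to 4 and 0 to 1 among contractile genes and 0 to 1 and 1 to 7 among p53 targets. Calls downward ranged from 0 to 1 among regulators and 0 to 2 among neighbours, and calls upward from 0 to 1 among TNF receptors.

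Arrays of the same replicate number share only that number in the labels. Their deviations from group means correlated by 0.0958, 0.246 and 0.129 over probesets, and each array correlated best with its own number. With the replicate number as a block the differences of *ACTA2* and *FAS* were -1.29 and 1.33, 908 probesets rose and 1967 fell, 1 actin, 3 regulators, 7 p53 targets and 2 neighbours fell, and 2 regulators rose.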
